A study of Homo sapiens with 6 samples.

Results

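The aryl hydrocarbon receptor AHR, its partner ARNT, its feedback regulators AHRR and TIPARP, its enzyme targets CYP1A1, CYP1B1 and NQO1, and the glutathione transferases GSTA1, GSTA4 and GSTP1 were followed through enzalutamide and PTUPB treatment of prostate cancer cells. These 10 genes were taken by name from the 58735 genes of the deposited table, and all 10 were found. Of them, 7 reached a mean of 1 FPKM (fragments scaled by exon length and by 1 factor per library) and were tested among 12960 genes. AHR, AHRR and GSTP1 lay below that mean and are given as values.

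C4-2B MDVR is an enzalutamide-resistant line derived from the human prostate cancer line C4-2B. Cells were treated for 2 days with enzalutamide (20 μM), an antiandrogen, with PTUPB, an inhibitor of both cyclooxygenase-2 and soluble epoxide hydrolase, at 10 μM or 20 μM, or with either PTUPB dose plus enzalutamide, and DMSO-treated cells were the control. There was 1 mRNA library per group, and nothing in the labels ties a group to more than 1 culture, so no pairwise difference could be checked in replicates. The enzalutamide dose of the combinations is not labelled and was taken as equal. Depth was 20156523 to 29450436 fragments per library. The prostate luminal markers KLK3, which encodes prostate-specific antigen, and HOXB13, a prostate homeobox factor, were present in every library. At 0, 10 and 20 μM PTUPB, KLK3 had 56.6, 19.02 and 0.458 FPKM with enzalutamide and 105.4, 89.7 and 0.648 FPKM without it. HOXB13 had 68.0, 50.8 and 7.29 FPKM with enzalutamide and 77.2, 52.0 and 8.67 FPKM without it. Both were lowest in the 20 μM libraries. The luminal keratins were not: KRT8 had 42.5, 43.3 and 82.1 FPKM with enzalutamide and 55.01, 44.96 and 56.7 FPKM without it. KRT18 had 50.7, 48.1 and 106.5 FPKM with enzalutamide and 77.2, 58.3 and 71.7 FPKM without it. The blood markers PTPRC, CD3E and CD68 together held at most 5 fragments in any library.

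AHR is a ligand-activated transcription factor that waits in the cytosol with HSP90, enters the nucleus on binding a ligand, and pairs with ARNT to bind DNA elements that hold the core GCGTG. Its classical targets are the cytochromes CYP1A1 and CYP1B1, the quinone reductase NQO1, which also answers to NRF2 through antioxidant elements of the form TGACNNNGC, and the repressors AHRR and TIPARP, which damp the receptor. Glutathione transferases join glutathione to reactive compounds. GSTP1 is known for silencing by promoter methylation in prostate cancer.

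In GENCODE 29 (build GRCh38), matched by gene identifier, the receptor genes were AHR at chr7:16916359-17346152 (+), ARNT at chr1:150809705-150876768 (-), AHRR at chr5:304176-438291 (+) and TIPARP at chr3:156673235-156706770 (+). The enzyme targets were CYP1A1 at chr15:74719542-74725610 (-), CYP1B1 at chr2:38066973-38109902 (-) and NQO1 at chr16:69706996-69726951 (-). The transferases were GSTA1 at chr6:52791664-52803910 (-), GSTA4 at chr6:52977948-52995378 (-) and GSTP1 at chr11:67583595-67586656 (+), and each level sums the exons of the gene.

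Promoter windows of 250 bases before the start were taken from RefSeq (build GRCh38.p14), in which 9 of the 10 genes had an entry. Windows are shown for TIPARP and CYP1A1, which both hold the AHR core and differ in how their levels moved, and for GSTA1 and GSTP1, whose sequences and levels differ most among the transferases. Capitals mark GCGTG or TGACNNNGC, searched on both strands (a match on the other strand reads as its reverse complement), and no match of one overlapped a match of the other. The TIPARP window is chr3:156674340-156674589 (+ strand), the CYP1A1 window chr15:74725529-74725778 (- strand), the GSTA1 window chr6:52803817-52804066 (- strand) and the GSTP1 window chr11:67583562-67583811 (+ strand), each printed 5′ to 3′ along the gene.
TIPARP: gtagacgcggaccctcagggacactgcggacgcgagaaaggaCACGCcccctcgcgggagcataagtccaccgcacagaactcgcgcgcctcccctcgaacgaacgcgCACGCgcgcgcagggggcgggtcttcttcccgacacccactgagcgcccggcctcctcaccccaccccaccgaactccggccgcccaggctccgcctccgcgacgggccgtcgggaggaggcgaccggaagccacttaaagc
CYP1A1: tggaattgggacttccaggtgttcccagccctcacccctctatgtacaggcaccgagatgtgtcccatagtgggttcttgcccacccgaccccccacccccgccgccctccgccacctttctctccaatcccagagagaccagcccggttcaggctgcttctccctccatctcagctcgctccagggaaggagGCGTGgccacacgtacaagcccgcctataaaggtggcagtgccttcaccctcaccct
GSTA1: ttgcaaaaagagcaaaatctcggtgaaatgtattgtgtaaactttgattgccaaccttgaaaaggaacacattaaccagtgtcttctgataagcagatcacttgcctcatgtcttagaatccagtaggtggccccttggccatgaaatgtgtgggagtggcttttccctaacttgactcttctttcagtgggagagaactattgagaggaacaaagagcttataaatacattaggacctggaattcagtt
GSTP1: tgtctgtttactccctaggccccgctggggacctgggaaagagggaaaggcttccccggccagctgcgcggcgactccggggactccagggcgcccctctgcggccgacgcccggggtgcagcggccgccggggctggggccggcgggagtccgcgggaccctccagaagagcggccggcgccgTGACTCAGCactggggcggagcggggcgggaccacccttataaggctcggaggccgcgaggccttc
GCGTG was found 2 times in the first TIPARP window, on the other strand at 208 to 204 and 142 to 138 bases before the start, 1 time in the CYP1A1 window at 57 to 53 bases, and in both AHRR windows, and in 31.9% of 27305 windows. TGACNNNGC was found in the windows of ARNT, GSTA4 and GSTP1 and in 11% of all windows. The windows of NQO1, AHR and GSTA1 held neither motif. The match in GSTP1 lay 66 to 58 bases before the start. The GSTP1 window held 28 CpG dinucleotides and the GSTA1 window 1, against a median of 11 over all windows. TIPARP has 3 listed starts, and the windows of the other 2 held neither motif. A match describes the letters only, and no binding or methylation was measured here.

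At 20 μM PTUPB, AHR, ARNT, TIPARP and NQO1 stood higher, while AHRR, CYP1B1 and the alpha-class transferases stood lower and CYP1A1 overlapped. In the additive model (PTUPB dose plus enzalutamide, fitted to all 6 libraries with limma), 2 of the 7 tested genes rose, ARNT and TIPARP, and 3 fell, GSTA1, CYP1B1 and GSTA4, at adjusted p under 0.05. Among all 12960 genes 15.9% rose and 18.2% fell, 34.2% in all, so changes were common at this dose. Read library against library, 2 of the 7 stood at least 1 higher on the log2(FPKM + 1) scale and 3 at least 1 lower with enzalutamide (13.5% and 15.8% of all genes), and 1 higher and 2 lower without it (9.47% and 12.7%). NQO1 and CYP1A1 did not pass. CYP1B1 and GSTA1 were below 1 FPKM in both 20 μM libraries and met the level filter through the other libraries, so the filter favoured a fall in them, and the counts are a description. With 2 residual degrees of freedom, p-values measure departures from additivity and not replicate spread. Without the control library 982 genes passed, and without the enzalutamide library 324 passed, against 4426 with all 6 libraries. GSTA1 was the 1 tested gene of the 7 called in either reduced fit, each of which has 1 residual degree of freedom.

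AHR was barely detected except at 20 μM PTUPB. At 0, 10 and 20 μM PTUPB it had 0.0789, 0.0937 and 0.985 FPKM with enzalutamide and 0.128, 0.109 and 0.974 FPKM without it. Both 20 μM libraries were above the other 4, which held 18 to 31 fragments each, against 146 fragments at 20 μM with enzalutamide and 186 without. The level at 20 μM against 0 μM was 12.5-fold higher with enzalutamide (95% exact interval 7.63 to 21.7) and 7.59-fold higher without it (5.17 to 11.5). All such intervals cover counting error only. When the level filter was dropped, the AHR effect was 0.84 on the log2(FPKM + 1) scale (SE 0.13) with an adjusted p of 0.058 by limma, just short of the threshold. On that scale the change of a gene with so low a level is understated.

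ARNT, the dimer partner, was present at a steady level and rose at 20 μM PTUPB. It had 11.0, 11.1 and 24.1 FPKM with enzalutamide and 10.9, 10.6 and 16.7 FPKM without it at 0, 10 and 20 μM. The 4 libraries at 0 and 10 μM lay between 10.6 and 11.1 FPKM, and both 20 μM libraries were above them. The additive effect of 20 μM was 0.82 (SE 0.20, adjusted p = 0.027 by limma). The pairs gave 2.18-fold with enzalutamide (interval 2.06 to 2.31) and 1.53-fold without it (1.45 to 1.63), and whether they differ was not tested. The call was lost without the level filter and in the fits that left out the control, the enzalutamide library or either 10 μM library.

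AHRR, which competes with AHR for ARNT, was near the detection limit throughout. It had 0.129, 0.0789 and 0 FPKM with enzalutamide and 0.122, 0.167 and 0.0386 FPKM without it at 0, 10 and 20 μM PTUPB. These levels rest on 28, 16 and 0 fragments and on 28, 38 and 7 fragments. Taken at a floor of 3 fragments (0.0213 FPKM), the 0 was 6.06-fold lower than with enzalutamide alone. That value leaves out the counting error of the 28 fragments, and the exact 95% upper limit of the 0 is higher, at 0.0262 FPKM. Without enzalutamide the 20 μM level was 3.16-fold lower than in the control (interval 1.35 to 8.57). AHR and AHRR thus had their highest and lowest levels in the same 2 libraries.

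TIPARP, an ADP-ribosyltransferase induced by AHR that represses it in turn, rose at 20 μM PTUPB. Levels were 3.39, 2.05 and 15.7 FPKM with enzalutamide and 3.09, 3.47 and 9.32 FPKM without it at 0, 10 and 20 μM. Both 20 μM libraries were above the other 4, and the library with 10 μM PTUPB plus enzalutamide was the lowest of the 6. The additive effect was 1.63 (SE 0.30, adjusted p = 0.014 by limma), with 4.62-fold in the pair with enzalutamide (interval 4.17 to 5.13) and 3.02-fold without it (2.71 to 3.37). At 10 μM the pairs lay on opposite sides of 1, at 0.606-fold with enzalutamide (0.521 to 0.705) and 1.12-fold without it (0.990 to 1.28; 0.906-fold after rescaling to TPM).

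CYP1B1, which oxidises oestrogens and polycyclic hydrocarbons, went the other way. At 0, 10 and 20 μM PTUPB it had 1.64, 0.680 and 0.0453 FPKM with enzalutamide and 1.91, 1.68 and 0.120 FPKM without it. Both 20 μM libraries were below the other 4, with 5 fragments with enzalutamide and 17 without, against 108 to 344 fragments elsewhere. The level at 20 μM was 36.2-fold lower with enzalutamide (interval 15.3 to 112) and 16.0-fold lower without it (9.84 to 27.8). The additive effect was -1.36 (SE 0.30, adjusted p = 0.022 by limma), on a scale that compresses low levels: a pseudocount of 0.1 gave -3.39. Its mean of 1.01 FPKM was just over the filter, which it passed through its levels at 0 and 10 μM. At 10 μM it was also 2.42-fold lower with enzalutamide (1.93 to 3.05), and 1.14-fold lower without it (0.971 to 1.33).

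CYP1A1, the cytochrome most often used as a readout of AHR activity, was not called at 20 μM PTUPB. Levels were 2.91, 3.07 and 1.63 FPKM with enzalutamide and 1.92, 1.58 and 1.79 FPKM without it at 0, 10 and 20 μM. The 20 μM and lower-dose libraries overlapped, and the additive effect of 20 μM was -0.32 (SE 0.25, adjusted p = 0.36 by limma). The pairs of 20 over 0 μM gave 1.78-fold lower with enzalutamide (interval 1.41 to 2.25) and 1.07-fold lower without it (0.862 to 1.34). The highest levels were those of the 2 libraries with enzalutamide at 0 and 10 μM. Enzalutamide pairs gave 1.51-fold at 0 μM PTUPB (interval 1.26 to 1.83; 1.12-fold after TPM), 1.95-fold at 10 μM (1.60 to 2.38; 1.89-fold after TPM) and 0.915-fold at 20 μM (0.704 to 1.19; 0.733-fold after TPM).

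NQO1, which reduces quinones without releasing radicals, had the highest FPKM of the 10 genes in every library except that with 10 μM PTUPB alone, where GSTA1 was marginally higher (25.0 against 24.7 FPKM). NQO1 had 36.3, 35.2 and 47.5 FPKM with enzalutamide and 27.9, 24.7 and 54.8 FPKM without it at 0, 10 and 20 μM. Both 20 μM libraries were above the other 4. The additive effect of 20 μM was 0.66 (SE 0.23, adjusted p = 0.076 by limma) and did not pass, although limma-voom on recovered fragments gave an adjusted p of 0.040. The pairs were 1.31-fold with enzalutamide (interval 1.25 to 1.38) and 1.96-fold without it (1.87 to 2.06). Over the tested genes, both 20 μM libraries stood above the other 4 for ARNT, TIPARP and NQO1 and below them for CYP1B1, GSTA1 and GSTA4. Among all 12960 genes 30.3% stood above and 29.5% below.

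**Figure D1:**
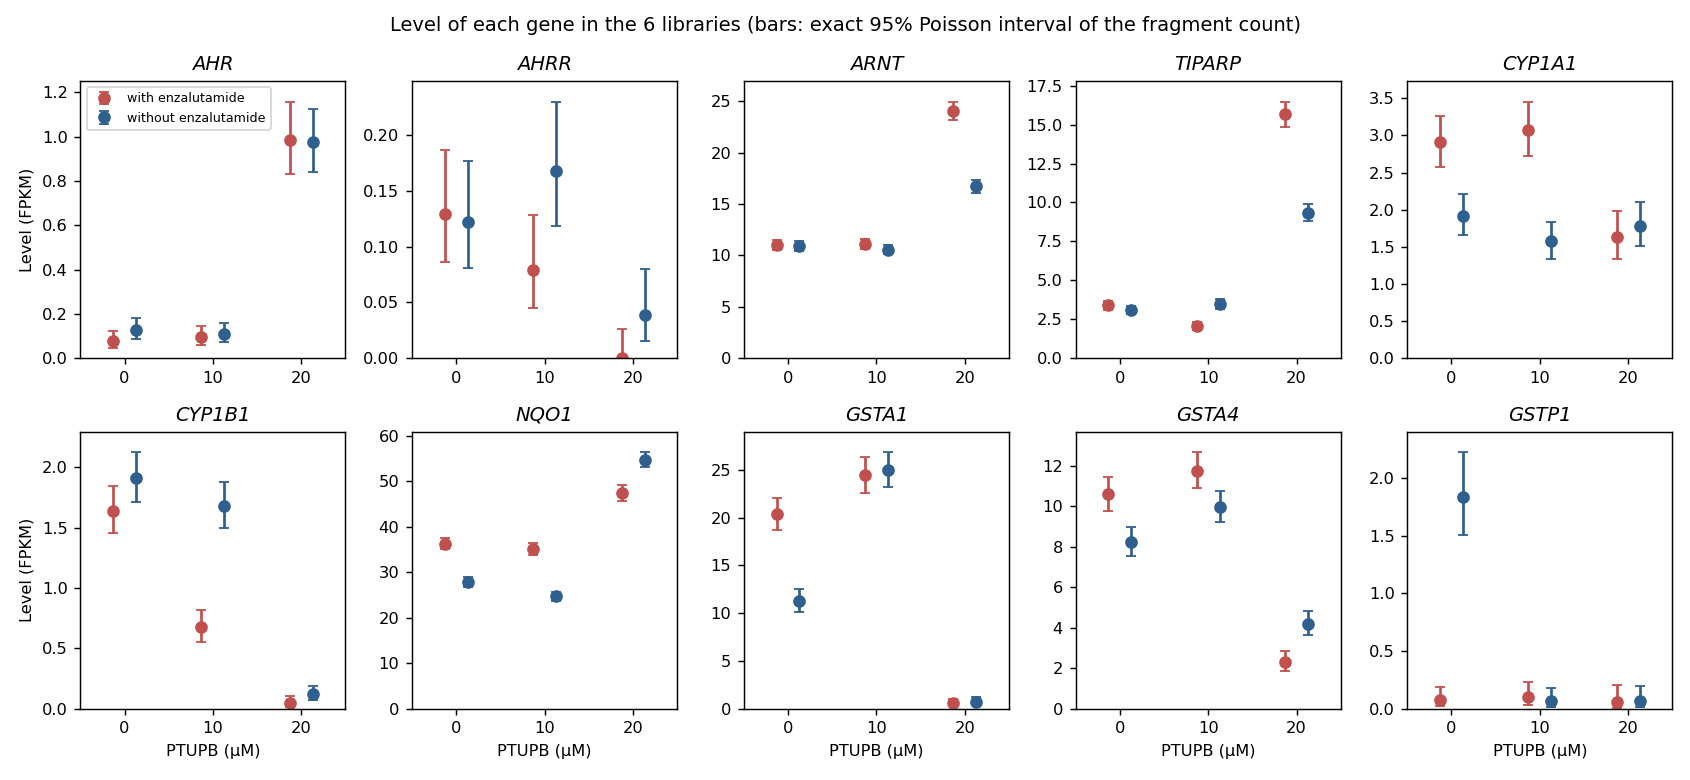
Level in FPKM (linear axes from 0) of each of the 10 genes against PTUPB dose in μM, with enzalutamide in red and without it in blue; points are single libraries and bars exact 95% Poisson intervals. AHR, ARNT, TIPARP and NQO1 stood highest at 20 μM, CYP1B1, GSTA1 and GSTA4 lowest, and GSTP1 was at most 0.0990 FPKM in the treated libraries, against 1.84 FPKM in the control.

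GSTA1, an alpha-class transferase with steroid isomerase activity, had the largest additive effect of the 7 tested genes on the log2(FPKM + 1) scale. As an FPKM ratio of 20 over 0 μM, CYP1B1 changed slightly more in both pairs, within the counting intervals. It had 20.4, 24.4 and 0.588 FPKM with enzalutamide and 11.3, 25.0 and 0.748 FPKM without it at 0, 10 and 20 μM PTUPB. The control was the lowest of the 4 libraries at 0 and 10 μM, and both 20 μM libraries were far below them, with 11 fragments with enzalutamide and 18 without. The level at 20 μM was 34.6-fold lower with enzalutamide (interval 19.2 to 69.7) and 15.1-fold lower without it (9.39 to 25.7). The additive effect of 20 μM was -3.28 (SE 0.27, adjusted p = 0.0029 by limma), and it passed in each alternative fit, with adjusted p of at most 0.0353. Reads may be shared with the close paralog GSTA2, which held at most 55 fragments in any library.

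GSTA4, which clears the lipid peroxidation product 4-hydroxynonenal, fell less. Levels were 10.6, 11.7 and 2.33 FPKM with enzalutamide and 8.24, 9.95 and 4.20 FPKM without it. Both 20 μM libraries were below the other 4, and the additive effect was -1.31 (SE 0.27, adjusted p = 0.018 by limma). The pairs gave 4.54-fold lower with enzalutamide (interval 3.65 to 5.70) and 1.96-fold lower without it (1.67 to 2.31). Of the 5 luminal markers reported here, 3 fell at 20 μM: KLK3 (-5.66, SE 0.46, adjusted p = 0.0029 by limma), HOXB13 (-3.04, SE 0.18, adjusted p = 0.0021) and FOLH1 (-2.83, SE 0.30, adjusted p = 0.0041). KRT8 (0.49, SE 0.26, adjusted p = 0.20 by limma) and KRT18 (0.48, SE 0.31, adjusted p = 0.28) did not pass. Whether the fall of the transferases is linked to this was not tested. In bulk RNA, fewer cells of a type and less RNA per cell cannot be told apart.

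**Figure D2:**
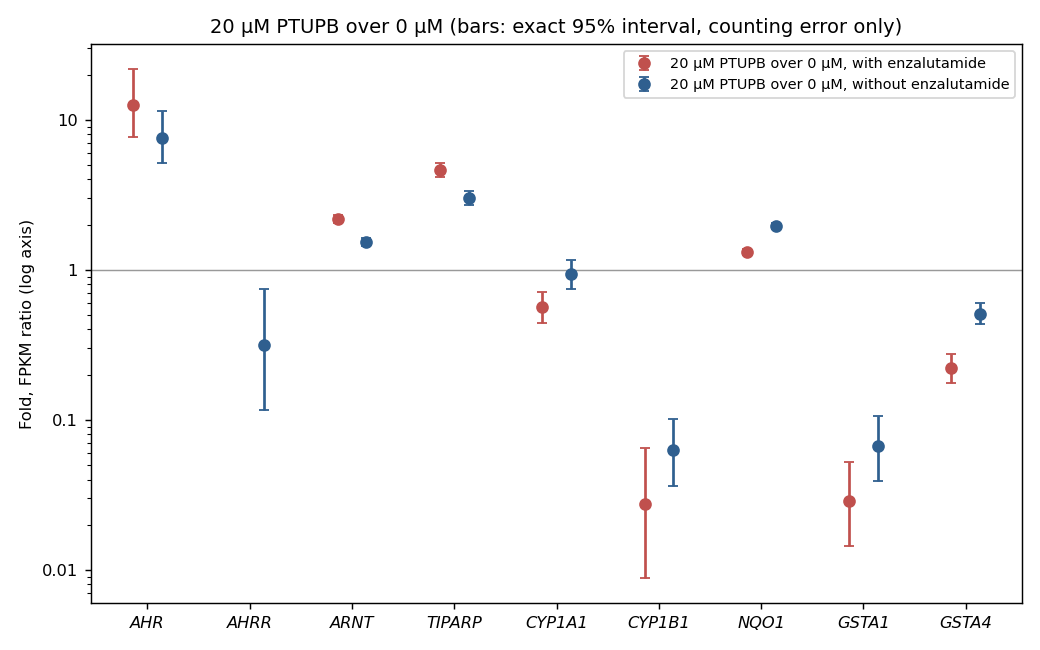
FPKM ratio of 20 μM over 0 μM PTUPB (log axis) for 9 of the genes, with enzalutamide in red and without it in blue; bars are exact 95% intervals for counting error. AHR was 12.5-fold and 7.59-fold higher, and CYP1B1 and GSTA1 were 15.1-fold to 36.2-fold lower; no ratio is drawn for AHRR with enzalutamide, where 0 fragments were found at 20 μM, or for GSTP1.

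The direct comparison of 20 against 10 μM PTUPB gave similar calls. TIPARP (1.83, SE 0.30, adjusted p = 0.011 by limma) and ARNT (0.83, SE 0.20, adjusted p = 0.026) rose, and GSTA1 (-3.95, SE 0.27, adjusted p = 0.0025) and GSTA4 (-1.51, SE 0.27, adjusted p = 0.014) fell. These are 2 rising and 2 falling of 7 tested genes, against 16.5% rising and 16.9% falling among all genes, 33.4% in all. Between libraries, 2 stood at least 1 higher on the log2(FPKM + 1) scale and 2 at least 1 lower with enzalutamide (13.7% and 14.7% of all genes), and 2 higher and 3 lower without it (9.27% and 13.1%). CYP1B1 (-0.97, SE 0.30, adjusted p = 0.056 by limma) and NQO1 (0.77, SE 0.23, adjusted p = 0.052) were close to the threshold on either side of 0, and CYP1A1 did not pass (adjusted p = 0.45). AHR stood 10.5-fold higher at 20 than at 10 μM with enzalutamide (interval 6.56 to 17.7) and 8.95-fold higher without it (5.92 to 14.1). Without 10 μM PTUPB plus enzalutamide GSTA1 alone passed among the 7, and without 10 μM PTUPB TIPARP and GSTA1 passed. This comparison shares the 20 μM libraries with the one against 0 μM.

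At 10 μM PTUPB no tested gene of the 7 was called, as for all 12960 genes (0%; 0 passed by limma while 480 were below 0.05 before adjustment, and these counts were 0 and 560 by limma-voom). GSTA1 was the 1 gene of the 7 with an unadjusted p under 0.05 (0.67, SE 0.27, unadjusted p = 0.048, adjusted p = 0.98 by limma). It was 1.20-fold higher with enzalutamide present (interval 1.07 to 1.34; 1.26-fold after TPM) and 2.22-fold higher than in the control (1.95 to 2.53; 1.79-fold after TPM). Of the 7 it was the 1 gene that stood at least 1 higher on the log2(FPKM + 1) scale than in the control, and 0 were as much lower (1.62% and 0.772% of all genes); with enzalutamide 0 moved that far in either direction (2.24% higher, 1.57% lower). In both pairs GSTA1 was higher at 10 μM and lower at 20 μM than at 0 μM, and a reversal with dose was not tested. The larger ratio at 10 μM rests on the control, the library with the lowest GSTA1 level at 0 and 10 μM. CYP1B1 lay at -0.39 (SE 0.30, adjusted p = 0.98 by limma) and the other 5 effects between -0.20 and 0.19. Under a pseudocount of 0.1, without the level filter and after TPM, 0 of the 7 had an unadjusted p under 0.05 by limma. With total-fragment scaling and by limma-voom, 1 of the 7 did.

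Enzalutamide gave no call either: 0 of 12960 genes (0%) passed by limma, while 626 were below 0.05 before adjustment. These counts were 1 and 679 by limma-voom. Effects on the 7 tested genes ran from -0.31 for CYP1B1 to 0.33 for CYP1A1, and 0 of them had an unadjusted p under 0.05 by limma or by limma-voom. None of the 7 differed by 1 or more on the log2(FPKM + 1) scale between libraries with and without enzalutamide, at 0 μM PTUPB (1.31% of all genes higher, 1.37% lower), 10 μM (1.41% and 2.01%) or 20 μM (3.83% and 2.9%). In the pair at 0 μM PTUPB, GSTA1 was 1.81-fold higher with enzalutamide than in the control (interval 1.58 to 2.07; 1.34-fold after TPM). NQO1 was 1.30-fold (1.23 to 1.37) and GSTA4 1.28-fold higher (1.14 to 1.44), but rescaling to TPM turned these to 0.964-fold and 0.953-fold. After that rescaling the median difference of all genes in this pair was -0.41 (log2), against -0.0025 as deposited. With 10 μM PTUPB, enzalutamide went with lower CYP1B1 (2.48-fold lower, interval 1.98 to 3.11) and TIPARP (1.69-fold lower, 1.46 to 1.96). CYP1A1 (1.95-fold, 1.60 to 2.38) and NQO1 (1.42-fold, 1.35 to 1.50) were higher in that pair. With 20 μM PTUPB, enzalutamide went with higher TIPARP (1.68-fold, interval 1.55 to 1.82, and 1.35-fold after TPM) and ARNT (1.44-fold, 1.36 to 1.52, and 1.15-fold after TPM). GSTA4 was lower there (1.80-fold lower, 1.41 to 2.33). TIPARP thus went in opposite directions with enzalutamide at 10 and 20 μM.

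**Figure D3:**
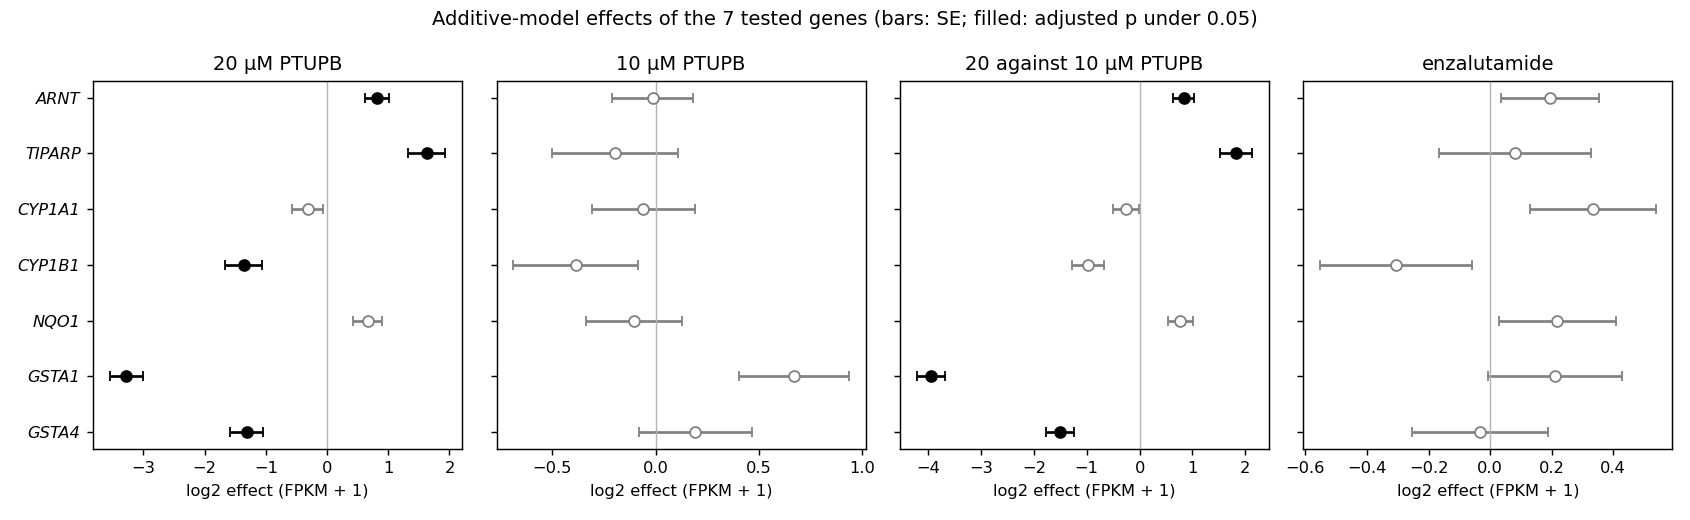
Additive-model effects on the log2(FPKM + 1) scale for the 7 tested genes, for 20 μM PTUPB, 10 μM PTUPB, 20 against 10 μM and enzalutamide; each panel has its own axis, bars are SE and filled points passed at adjusted p under 0.05. Filled points are ARNT, TIPARP, CYP1B1, GSTA1 and GSTA4 at 20 μM, and the same genes except CYP1B1 for 20 against 10 μM.

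GSTP1, the pi-class transferase, showed a pattern of its own. It had 0.0741, 0.0990 and 0.0570 FPKM with enzalutamide and 1.84, 0.0708 and 0.0664 FPKM without it at 0, 10 and 20 μM PTUPB. This corresponds to 2 to 5 fragments in each of the 5 treated libraries, against 105 fragments in the control library (exact 95% interval 1.50 to 2.23 FPKM). The level was 24.8-fold lower with enzalutamide (interval 9.40 to 92.7) and 26.0-fold lower with 10 μM PTUPB (9.84 to 97.0) than in the control, and both values rest on that single control library. Among the 5 treated libraries the intervals overlap.

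Other genes with the same distribution were looked for after this was seen. Genes with 50 or more fragments in 1 library and no more than 5 in any other numbered 0 in the enzalutamide and both 10 μM libraries, 6 at 20 μM PTUPB, 2 at 20 μM PTUPB plus enzalutamide and 14 in the control. Among the 14 were the collagen gene COL1A2 (at most 4 fragments in any treated library, against 204 in the control) and EREG, an epidermal growth factor family ligand that is AHR-responsive (at most 4, against 87). TP63, the master factor of basal epithelium, held at most 3 fragments in any treated library, against 51 in the control. Over the fixed lists, the basal markers TP63, KRT5 and KRT14 summed to 0.00508 to 0.168 FPKM in the treated libraries and to 0.522 FPKM in the control, with KRT5 at 0 there and at 13 and 7 fragments in the libraries with 20 μM PTUPB alone and with enzalutamide. The stroma markers summed to 2.39 to 6.47 FPKM in the treated libraries and to 3.04 FPKM in the control, mostly from COL1A1, and DCN held at most 2 fragments anywhere. COL1A1, a collagen gene, rose at 20 μM PTUPB (0.96, SE 0.19, adjusted p = 0.016 by limma), to 6.47 FPKM with enzalutamide against 2.28 FPKM at 0 μM and to 4.60 FPKM without it against 2.38 FPKM. Endothelial markers summed to 0.0570 to 0.496 FPKM in the treated libraries and to 0.450 FPKM in the control. The part these markers have in the GSTP1 values was not tested. Nor was it tested whether the control library holds RNA of other cells, so the GSTP1 ratios describe these libraries and were not shown to be an effect of treatment. For the tested genes, fits without the control left each 20 μM effect with the same sign. A kept sign does not test what RNA the control library holds, and calls were lost in that fit, as given above.

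**Figure D4:**
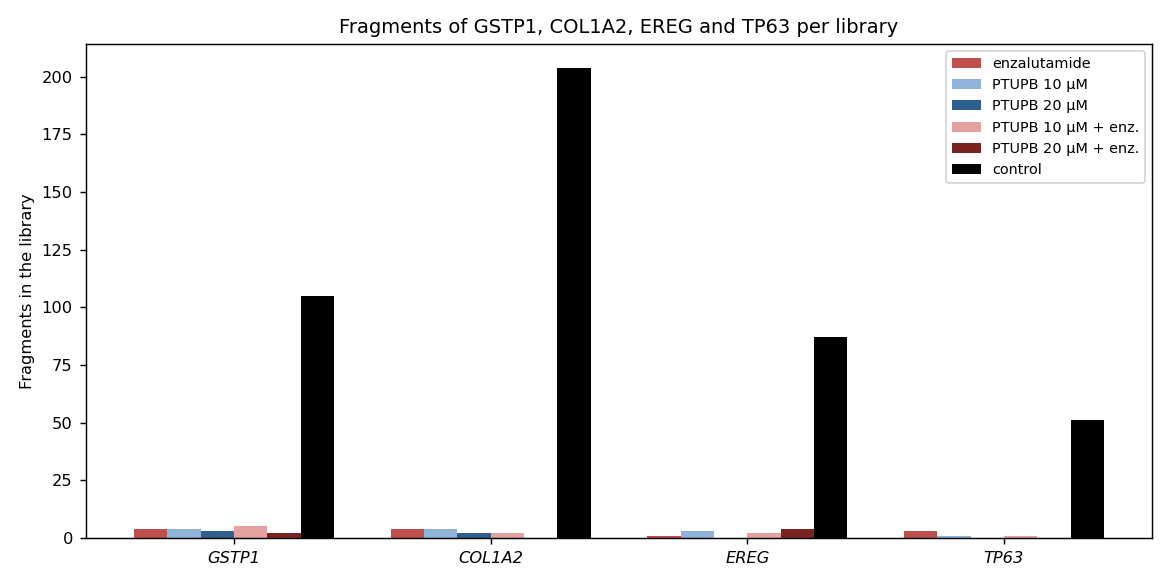
Fragments of GSTP1, COL1A2, EREG and TP63 in each of the 6 libraries (bars from 0, control in black at the right of each gene). Every treated library held at most 5 fragments of each gene, and the control 105, 204, 87 and 51.

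The rest of the pathway was read from 5 lists. Of 10 AHR partners and cofactors, all tested, 1 rose at 20 μM PTUPB and 0 fell, against 15.9% and 18.2% of all genes, with a median effect of -0.23 against 0.00448 over all genes. The riser was NCOA1, a steroid receptor coactivator (0.60, SE 0.16, adjusted p = 0.039 by limma). The chaperone genes HSP90AB1 (-0.86, SE 0.27, adjusted p = 0.054 by limma) and HSP90AA1 (-0.81, SE 0.27, adjusted p = 0.065), which hold AHR in the cytosol, and the coactivator gene NCOA3 (0.58, SE 0.19, adjusted p = 0.062) did not pass. Of 12 other AHR-responsive genes, 2 reached the level filter. The amino acid transporter gene SLC7A5 fell (-1.24, SE 0.26, adjusted p = 0.020 by limma), and STC2, which encodes a secreted glycoprotein, was at -0.29 (SE 0.33, adjusted p = 0.52).

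Most listed genes of the NRF2 axis, which NQO1 shares, rose at the higher dose. Of 10 listed and tested, 7 rose at 20 μM PTUPB and 0 fell, against 15.9% and 18.2% of all genes (median 1.50 against 0.00448 over all genes). GCLM, a subunit of the enzyme that starts glutathione synthesis, rose by 3.46 (SE 0.33, adjusted p = 0.0034 by limma), to 100.2 FPKM with enzalutamide against 11.8 FPKM at 0 μM, and to 169.7 FPKM without it against 10.2 FPKM. The heme oxygenase gene HMOX1 (2.80, SE 0.23, adjusted p = 0.0029), the quinone reductase gene NQO2 (2.32, SE 0.16, adjusted p = 0.0023) and the sulfiredoxin gene SRXN1 (2.12, SE 0.17, adjusted p = 0.0029) also rose. SLC7A11 (1.14, SE 0.46, adjusted p = 0.11 by limma), GCLC (0.52, SE 0.29, adjusted p = 0.21) and KEAP1 (0.26, SE 0.17, adjusted p = 0.28) did not pass. NQO2, the paralog of NQO1, stood 6.58-fold higher at 20 μM with enzalutamide and 6.29-fold higher without it. These ratios are larger than those of NQO1, a difference that was not tested.

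The other transferases were read beside GSTA1 and GSTA4. Of 19 listed genes 18 were in the table and 9 were tested. At 20 μM PTUPB 2 of these fell and 0 rose, a share of falls near the 18.2% of all genes (median -0.62 against 0.00448 over all genes). MGST1 went the other way without passing (0.68, SE 0.31, adjusted p = 0.14 by limma). It had 54.0 FPKM at 20 μM against 50.8 FPKM at 0 μM with enzalutamide, and 75.9 FPKM against 30.8 FPKM without it. MGST2, a microsomal transferase gene, fell by 2.19 (SE 0.25, adjusted p = 0.0048 by limma), to 3.08 FPKM with enzalutamide against 24.1 FPKM at 0 μM and to 4.26 FPKM without it against 16.7 FPKM. GSTM3, a mu-class gene, fell by 1.12 (SE 0.21, adjusted p = 0.014), to 16.3 FPKM against 44.9 FPKM with enzalutamide and 20.4 FPKM against 37.1 FPKM without it. GSTO1 (-1.09, SE 0.38, adjusted p = 0.077) and GSTM2 (-0.93, SE 0.30, adjusted p = 0.060) did not pass by limma. As an FPKM ratio of 20 over 0 μM, GSTM2 was 11.2-fold lower with enzalutamide (interval 6.87 to 19.5) and 5.08-fold lower without it (3.85 to 6.80). Its levels at 20 μM were 0.102 and 0.274 FPKM, where the log2(FPKM + 1) scale compresses a change. Its mean of 1.00 FPKM was just over the filter. GSTM2 passed that filter through its levels at 0 and 10 μM, so the filter favoured a fall. Reads of GSTM2 may be shared with its overlapping neighbour GSTM1. Of 5 exporters of glutathione conjugates 3 were tested and 2 fell, against 18.2% of all genes (median -0.84). They are ABCC4 (-2.71, SE 0.31, adjusted p = 0.0047 by limma) and ABCC1 (-0.84, SE 0.17, adjusted p = 0.017), while ABCC5 was at -0.71 (SE 0.37, adjusted p = 0.19). At 10 μM PTUPB and with enzalutamide, 0 genes of any of the 5 lists were called by limma.

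**Figure D5:**
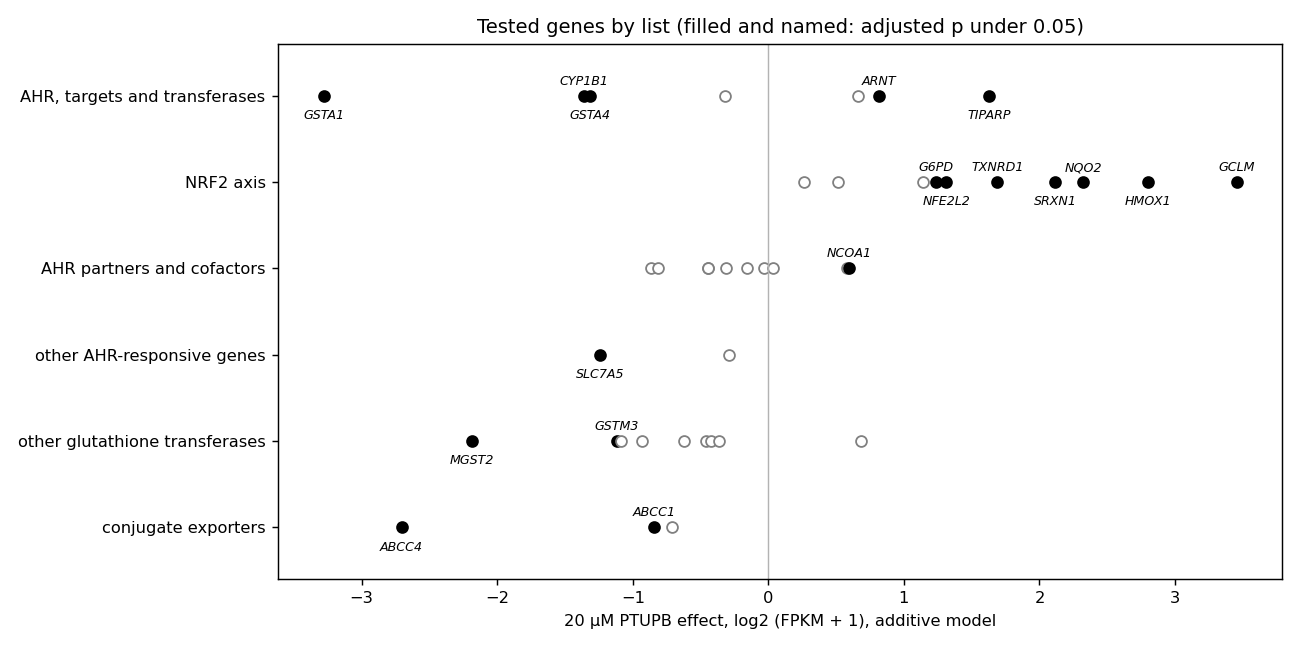
Effects of 20 μM PTUPB in the additive model, log2(FPKM + 1), for every tested gene of each list; filled and named points passed at adjusted p under 0.05 and open points did not. Of 10 NRF2 genes 7 rose, and of 9 other transferases and 3 exporters 2 each fell.

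The closest patterns over the 6 libraries were sought for the 3 tested genes with the widest range, by Euclidean distance between mean-centred log2(FPKM + 1) values. GSTA1 was closest to the proglucagon gene GCG (distance 0.202), at 12.2, 13.7 and 0 FPKM with enzalutamide and 7.43, 16.1 and 0.0532 FPKM without it at 0, 10 and 20 μM. Next came STEAP1, a metalloreductase gene of prostate epithelium (0.563). TIPARP was closest to CCDC163 (0.216) and to the nucleolar protein gene NOL7 (0.246), and GSTA4 to NIPAL1 (0.146) and to the syndecan gene SDC3 (0.154). The distances are a description over 6 libraries, chosen as the smallest among 12960 genes.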

How the data were processed

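RNA of 6 libraries was sequenced as paired-end mRNA libraries, per the labels' protocols. Alignment used HISAT and quantification Cufflinks, per the submitters' processing notes; no source used here gives versions, genome build or strand setting, and counts of overlapping or near-identical genes are therefore uncertain. The authors deposited FPKM. Every value times the GENCODE 29 exon length was a whole multiple of 1 step per library (within 0.05 fragments, 100% of values above 0). This gave fragments per gene. Median-of-ratios factors computed from the deposited values were 1 in every library, so the values already carry that scaling. Whether Cufflinks gave values of this form was not tested. All 58735 identifiers matched GENCODE 29.

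The test took genes whose mean FPKM was at least 1, as log2(FPKM + 1), in limma 3.58.1 (R 4.3.3) with trended variance, PTUPB as 3 levels plus enzalutamide, two-sided, Benjamini-Hochberg adjusted at 0.05 over all genes. The fit was also run on counts simulated without departures from additivity, which does not test the calls in these libraries. Ratios carry exact 95% binomial or Poisson intervals on fragments (scipy 1.17.1) and are given where both libraries hold more than 3 fragments. Motifs and figures used Python 3.11.15, pandas 2.3.3, numpy 2.4.6 and matplotlib 3.10.9. Alternatives were the pseudocount, the filter, TPM, median-of-ratios and total-fragment scaling, limma-voom and leaving out each library. From each list up to 4 tested genes with the largest 20 μM effect are named, and like patterns by distance. MGST1 and the NRF2 axis genes that did not pass are named beside them. COL1A2, EREG and TP63 were chosen after their values were seen, and of the luminal markers KLK3, HOXB13, FOLH1, KRT8 and KRT18 are reported here. The members and lists were chosen with earlier results of these data known.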

Additional observations from a re-analysis of the deposited data

How the results depend on the processing

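For the 7 tested genes no called effect changed sign under any alternative run. The calls at 20 μM PTUPB kept to 5 of 7 genes under a pseudocount of 0.1, TPM and total-fragment scaling, and limma-voom gave 6. Median-of-ratios scaling left the deposited values as they were and so tests nothing. Without the level filter 1201 genes passed for 20 μM PTUPB and 868 for 20 against 10 μM, with 1 of the 10 genes, GSTA1, called in each; more genes were tested there. With each library left out in turn, 324 to 5403 genes and 1 to 6 of the 7 passed at 20 μM, and 838 to 5591 genes and 1 to 5 of the 7 for 20 against 10 μM, in fits with 1 residual degree of freedom. For enzalutamide 9 genes passed after TPM (2 rose, 7 fell) and 1 by limma-voom, none of them among the 7. For 10 μM PTUPB 0 genes passed under any alternative. For 20 against 10 μM, CYP1B1 passed with a pseudocount of 0.1 (adjusted p = 0.043 by limma) and by limma-voom (0.0036), and NQO1 after TPM (0.015) and by limma-voom (0.022). TPM moved the median effect of all genes to -0.23 for enzalutamide, -0.15 for 10 μM PTUPB and 0.17 for 20 against 10 μM. No paired analysis was possible because each group has 1 library and the labels number no replicates. Depth limits AHRR, GSTP1 and, at 20 μM, CYP1B1 and GSTA1, where counts were low.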

Other observations

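Beside GSTP1, COL1A2 and EREG, the 14 genes with 50 or more fragments in the control library and at most 5 in any other included the aldehyde dehydrogenase gene ALDH7A1 (at most 3 fragments in a treated library, against 238 in the control), the metallothionein gene MT1E (at most 5, against 161), the granzyme inhibitor gene SERPINB9 (at most 4, against 111), RGS4 (at most 5, against 85) and the proteoglycan gene VCAN (at most 3, against 54). In the library with 20 μM PTUPB alone, such genes included the integrin gene ITGB6 (91 fragments, at most 3 elsewhere) and MEF2C (61, at most 1). These genes were picked for this distribution, so the values are a description.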
